A study of Mus musculus with 3 samples.

Results

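The regions described here are stretches of mouse cerebellum DNA that were recovered with an antibody against 5-hydroxymethylcytosine (5hmC) but in which most CpG base-calls read as 5-methylcytosine (5mC). Peaks of 3 replicates on chromosomes 1 to 19 were merged where they overlapped by at least 1 bp, which gave 13285 regions. Of these, 3924 had at least 15 base-calls in all and no CpG with 20 or more calls in a replicate, and 677 of the 3924 had 5mC in at least 60% of their calls. These 677 are the 5mC-dominated regions, and the remaining 3247 are called the other regions. The share of 5mC chose them, so the shares of 5mC, 5hmC and unmodified cytosine over the 677 are a description and carry no test. The study's whole-genome nanopore reads of cerebellum, from other mice, had a 5mC share just above this 60% threshold. The 5hmC share of those reads was below that of the 677 regions. The group thus stands out for 5mC among pulled-down regions and not against the genome.

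Cerebellum DNA came from an 8-week-old female mouse, whose strain is written C57Bl6Cr in the labels. The labels give no genetic change or treatment. DNA was sonicated to a mean of 362 bp, and 1 µg went into each of 3 pulldown reactions, a method called hMeDIP. Replicate 1 used a whole serum antibody and replicates 2 and 3 an IgG-purified one, and each product was sequenced without amplification on its own nanopore MinION flow cell, which reads 5mC, 5hmC and unmodified C directly. The library names give 1 mouse, so replicates vary by reaction and sequencing run and not by animal, and the antibody and the single reaction that used whole serum cannot be told apart. The replicates held 69910, 104238 and 75624 CpG calls over all sequences. On chromosomes 1 to 19 they had 490, 8506 and 5146 peaks.

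In mammals 5mC is set at CpG sites by the DNA methyltransferases, and the TET enzymes oxidise it to 5hmC. Neurons hold much 5hmC, above all in the bodies of genes, while satellite repeats near centromeres are known to be rich in 5mC. An antibody pulldown enriches for a modification but does not read single bases, so the base-calls give a second reading of the same fragments.

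The 5 examples printed here show the kinds of sequence in the group, and CpG sites are in capitals. Celsr2, a cadherin of planar cell polarity, and Ywhag, a 14-3-3 adaptor protein, are shown as the exonic regions with the most calls among those with peaks in several replicates and a summit window clear of untranslated sequence. The windows in Mecom, near Gm9075 and near Gm63573 are shown for their high 5mC. All are the plus strand of GRCm39, at chr3:108319679-108319978, chr5:135940057-135940356, chr3:30084772-30085071, chr12:3159873-3160172 and chr14:3050758-3051057.
Celsr2, exon: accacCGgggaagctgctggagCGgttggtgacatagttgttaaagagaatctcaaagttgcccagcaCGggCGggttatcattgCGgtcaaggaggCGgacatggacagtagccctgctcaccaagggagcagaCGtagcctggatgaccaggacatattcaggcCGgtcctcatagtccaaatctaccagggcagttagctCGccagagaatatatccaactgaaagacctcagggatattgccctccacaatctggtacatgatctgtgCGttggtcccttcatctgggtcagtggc
Ywhag, exon: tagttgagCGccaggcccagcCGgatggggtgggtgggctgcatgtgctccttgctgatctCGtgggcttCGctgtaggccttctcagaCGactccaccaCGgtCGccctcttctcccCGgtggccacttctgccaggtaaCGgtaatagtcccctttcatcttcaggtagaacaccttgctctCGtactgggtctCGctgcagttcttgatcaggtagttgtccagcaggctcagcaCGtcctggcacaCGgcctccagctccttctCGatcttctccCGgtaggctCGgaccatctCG
Mecom, intron: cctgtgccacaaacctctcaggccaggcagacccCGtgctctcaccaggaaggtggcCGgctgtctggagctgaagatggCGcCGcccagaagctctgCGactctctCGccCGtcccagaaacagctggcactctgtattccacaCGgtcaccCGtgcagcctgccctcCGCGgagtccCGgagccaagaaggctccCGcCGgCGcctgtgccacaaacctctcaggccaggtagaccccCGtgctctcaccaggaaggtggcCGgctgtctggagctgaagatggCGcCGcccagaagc
near Gm9075, intergenic: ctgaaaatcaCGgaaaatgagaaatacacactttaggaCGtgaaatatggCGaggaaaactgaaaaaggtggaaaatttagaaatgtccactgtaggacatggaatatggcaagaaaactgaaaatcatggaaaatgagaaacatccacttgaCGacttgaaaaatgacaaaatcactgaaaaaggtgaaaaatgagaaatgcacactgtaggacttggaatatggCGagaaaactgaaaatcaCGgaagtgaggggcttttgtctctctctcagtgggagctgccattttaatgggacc
near Gm63573, intergenic: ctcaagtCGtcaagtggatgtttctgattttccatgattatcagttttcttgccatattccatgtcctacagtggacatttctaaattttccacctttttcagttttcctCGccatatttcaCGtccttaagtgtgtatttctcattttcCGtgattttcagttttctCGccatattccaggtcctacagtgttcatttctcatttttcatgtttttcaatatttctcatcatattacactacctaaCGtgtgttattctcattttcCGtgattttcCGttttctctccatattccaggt
The Ywhag window holds 17 CpG sites in 300 bp and the window near Gm9075 holds 6. Of the calls in these windows, 48.3% were 5mC in Celsr2, 58.2% in Ywhag, 90.0% in Mecom, 89.5% near Gm9075 and 85.7% near Gm63573, so the 300 bp around the Celsr2 and Ywhag summits held less 5mC than the whole regions given below.

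The 677 regions held 19353 calls, of which 69.6% were 5mC, 21.1% were 5hmC and 9.28% were unmodified. In the other regions the shares were 33.6%, 31.8% and 34.6%. In replicates 1 to 3 the 5mC share of the 5mC-dominated regions was 70.9%, 69.0% and 69.7%. Their 5hmC share was 19.5%, 21.2% and 21.8%, and their unmodified share was 9.64%, 9.79% and 8.44%. Most of the regions still carried 5hmC calls, and 20 of the 677 (2.95%) had none. In 159 regions (23.5%) there was no unmodified call, against 122 of the 3247 others (3.76%) and 40 of the 184 regions with at least 60% 5hmC (21.7%). A single region had 5mC in every call. The regions were thinly covered, with a median of 22 calls, a lowest of 15 and a highest of 270, and 186 of them had 30 or more.

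**Figure D1:**
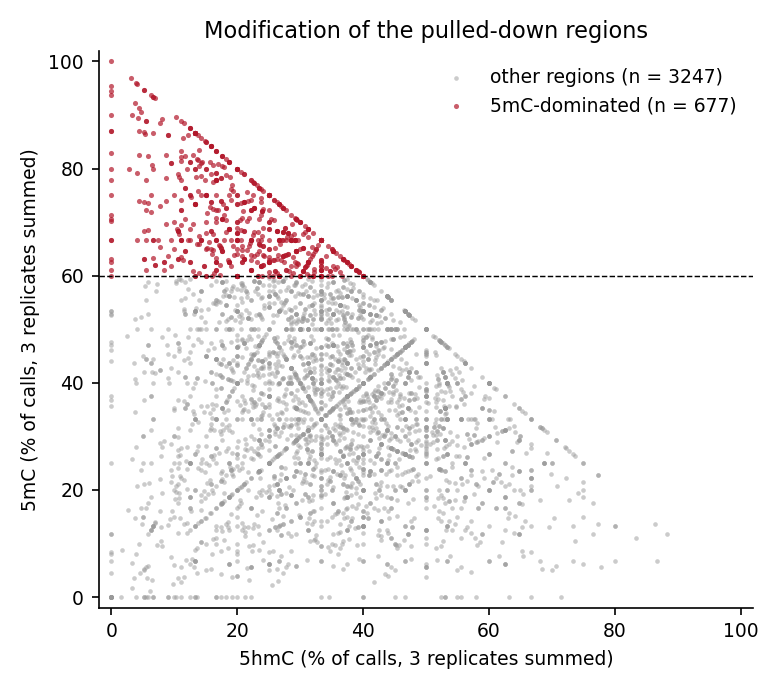
Each point is 1 of 3924 regions, placed by its 5hmC share (x axis) and 5mC share (y axis) of base-calls summed over 3 replicates; the 677 5mC-dominated regions in red lie at or above the dashed line at 60%, which chose them. The points in red spread over low and moderate 5hmC, and 20 of them lie at no 5hmC.

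Just inside the threshold, with 30 or more calls, regions in Gm26562, Npas3 and Foxn3 had exactly 60% 5mC, from 54 of 90, 21 of 35 and 21 of 35 calls. Just outside, regions in Plcxd1, Ppm1b and Asphd1 had 59.6%, 59.6% and 59.5%, from 31 of 52, 28 of 47 and 22 of 37 calls. The share of regions that reached 60% was 19.9% (249 of 1254) among those with 15 to 19 calls, 18.5% (242 of 1309) with 20 to 29, 14.3% (126 of 884) with 30 to 49 and 12.6% (60 of 477) with 50 or more. The group is thus richer in thinly covered regions.

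To read 5mC in calls that had no part in the choice, regions were chosen on 2 replicates (at least 10 calls, at least 60% 5mC) and read in the third. The bounds of the regions still came from the merged peaks of all 3 replicates. Each replicate also helped to choose regions for the others, so the 3 differences are not independent. With replicate 1 held out, 995 of 5151 regions were chosen, and 5mC was 56.3% of 3433 held-out calls against 35.4% in the regions not chosen. With replicate 2 held out, 675 of 3255 were chosen and 5mC was 51.8% against 34.7%. With replicate 3 held out, 773 of 4015 were chosen and 5mC was 55.4% against 35.2%. Not every chosen region could be read: 354, 382 and 335 of them had a call in held-out replicates 1, 2 and 3. The held-out level was below the 60% used for the choice in every replicate, and above the other regions in every replicate. The mean difference was 19.4 percentage points ± 2.03 (SD, n = 3), positive in 3 of 3 replicates (exact two-sided sign-flip permutation test, p = 0.25, the smallest that 3 replicates allow). With a replicate left out, each choice rested on a single replicate. The mean difference was then 17.3 points without replicate 1, 35.0 without replicate 2 and 18.7 without replicate 3.

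The counterpart of the higher 5mC in the held-out calls was mostly less unmodified C. Unmodified C was 18.2% ± 1.24 in chosen regions and 34.9% ± 1.35 in the others (SD, n = 3), a mean difference of -16.7 percentage points. 5hmC was 27.3% ± 1.22 against 30.04% ± 1.53, a mean difference of -2.70 ± 1.60 (SD, n = 3). It was lower in 3 of 3 replicates (26.7% against 28.3%, 28.7% against 30.7% and 26.6% against 31.2%). For both states the exact sign-flip permutation test gave p = 0.25, and over the 3 states the adjusted p was 0.25 for each. When each choice rested on a single replicate, the 5hmC difference was -3.71 percentage points without replicate 1 and -9.00 without replicate 2. It turned to 2.36 without replicate 3, and it was -5.58 with 5mC of at least 70%.

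**Figure D2:**
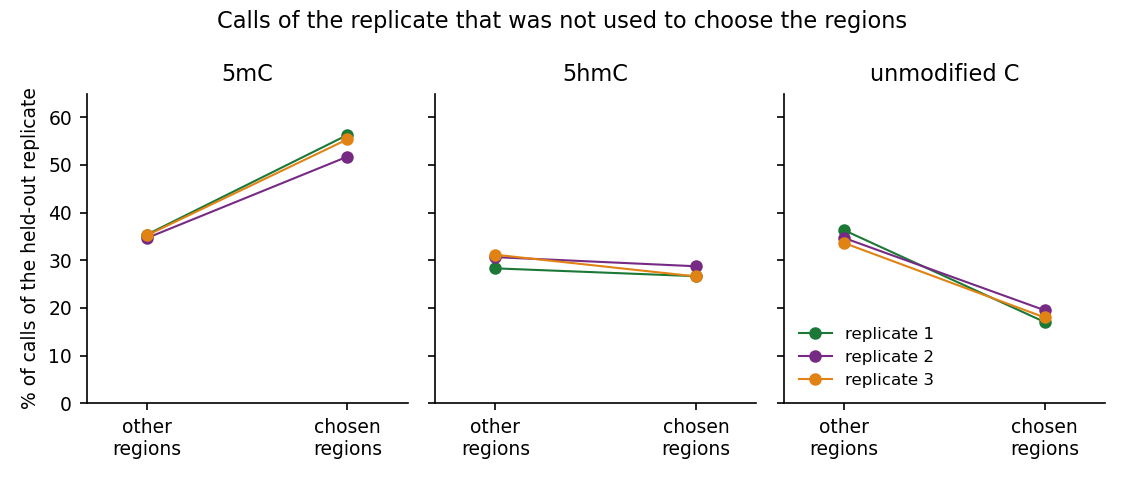
Shares of 5mC, 5hmC and unmodified C (y axis, % of calls of the held-out replicate) in regions chosen as 5mC-dominated on the other 2 replicates and in regions not chosen, with 1 line per replicate. 5mC is higher in the chosen regions by 17.1 to 20.9 percentage points and unmodified C is lower in every replicate. The 5hmC differences are smaller, at -1.64, -1.92 and -4.55 points in replicates 1 to 3.

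Held-out 5mC was also read by the place of the region, given by the annotation that covers most of its bases (promoter being the 1000 bp before a gene start). Chosen exonic regions had 54.2% ± 1.64 5mC against 36.9% ± 0.586 in other exonic regions, and chosen intronic regions 52.9% ± 1.69 against 35.5% ± 0.510 (SD, n = 3). Intergenic regions were farthest apart, with 61.0% ± 7.86 against 28.1% ± 3.17. The chosen intergenic regions gave only 243, 431 and 244 held-out calls in replicates 1 to 3. Of these, 39, 24 and 32 came from the single region near Gm9075 described below. Promoter regions had 59.4% ± 8.47 against 35.8% ± 2.62. The difference was positive in all 3 replicates in each of the 4 places, and whether it differs between places was not tested.

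Across the genome 606 of the 677 regions (89.5%) lay over a gene, 538 of them over a protein-coding gene. Introns held 371 regions (54.8%), exons 198 (29.2%), intergenic DNA 66 (9.75%) and promoters 42 (6.20%). Against the other regions there were fewer in introns (62.0% there) and more in exons (25.1%) and intergenic DNA (6.68%). The contrast with the 184 regions that had at least 60% 5hmC was wider, since 75.5% of those lay in introns and 10.9% in exons. Coding sequence was touched by 34.9% of 5mC-dominated regions, 29.1% of the others and 11.96% of the 5hmC-dominated ones. The 333 regions with at least 60% unmodified C were more like the 5mC-dominated ones, with 47.7% in introns, 31.8% in exons and 36.04% touching coding sequence. Regions are not replicates, so these shares are given without a test.

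**Figure D3:**
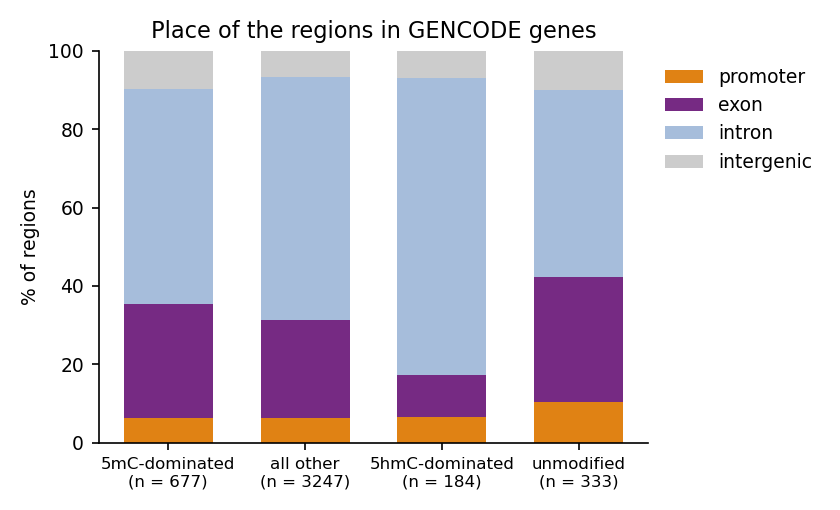
Stacked bars give the % of regions (y axis) in promoters, exons, introns and intergenic DNA for the 677 5mC-dominated regions, all 3247 other regions, and the 184 5hmC-dominated and 333 unmodified regions among those others. The intron share is 54.8% in the first bar and 75.5% in the 5hmC-dominated bar.

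The 5mC-dominated regions were denser in CpG than the other regions as a whole. Their median length was 414 bp against 517 bp in the others, 442 bp in the 5hmC-dominated and 393 bp in the unmodified regions, and their median CpG density was 2.86 per 100 bp against 2.41. Median GC content was 52.5% against 51.6%, and the ratio of observed to expected CpG was 0.435 against 0.384. 5hmC-dominated regions were lowest in CpG density (2.243) and GC (49.1%), and unmodified regions highest (2.98 and 54.6%). CpG island-like sequence, meaning at least 200 bp with GC of 50% or more and a CpG ratio of 0.6 or more over the region, made up 10.0% of the 5mC-dominated regions, 5.76% of the others, 2.17% of the 5hmC-dominated and 20.4% of the unmodified ones. The density depends on the call minimum: with 30 or more calls the median of the 5mC-dominated regions was 3.56 per 100 bp.

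**Figure D4:**
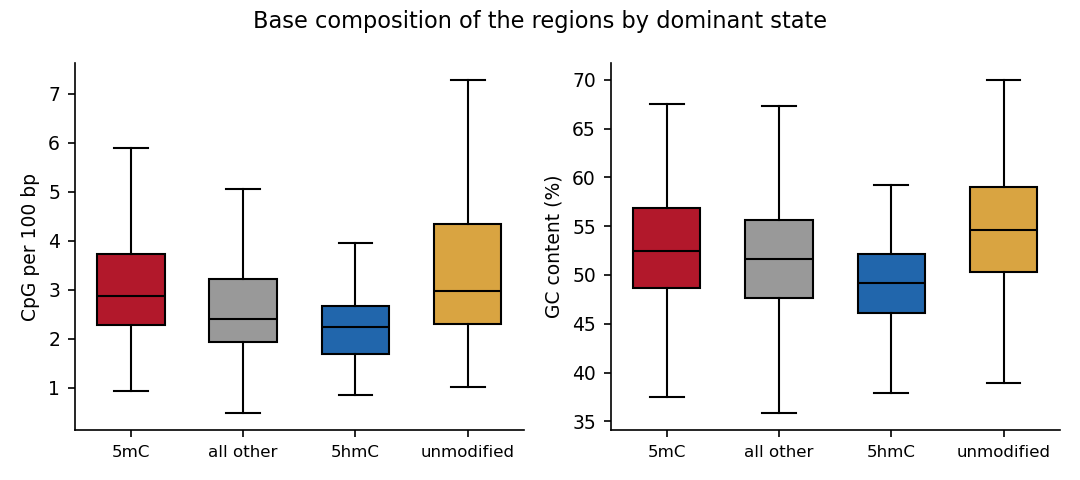
Box plots of CpG per 100 bp (left) and GC content in % (right) for regions dominated by 5mC, all other regions, and those of the others dominated by 5hmC or unmodified C; the line is the median, the box the quartiles and the whiskers reach 1.5 times the quartile range. The 5mC-dominated median lies between the 5hmC-dominated and the unmodified medians on both axes.

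A pair of short motifs were looked for on both strands in the 300 bp around each summit. TGCCGC was in 11.8% of 5mC-dominated windows, 8.35% of the others, 11.4% of the unmodified and 4.89% of the 5hmC-dominated windows, and 5.86% of all 13285 windows. CACGTG, a palindrome known as an E-box, was in 9.60%, 8.53%, 10.8%, 6.52% and 6.60% of the same sets. A match is a run of letters and not a binding site.

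Within the regions 5mC was lower far from the summit than near it in all 3 replicates, by the most in replicate 3. Within 100 bp it was 72.3%, 70.3% and 71.1% of calls in replicates 1 to 3, and beyond 400 bp it was 69.3%, 65.5% and 59.5%. Summed over replicates this was 71.0% near the summit and 64.9% beyond 400 bp, where unmodified C was 12.6% against 8.25%. 5hmC was 20.8% and 22.4%. In the other regions 5mC was also lower beyond 400 bp in all 3 replicates, at 34.4% within 100 bp and 30.7% beyond 400 bp over all, and 5hmC was 33.9% and 27.6%. The members' values come from the calls that chose them and are a description.

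**Figure D5:**
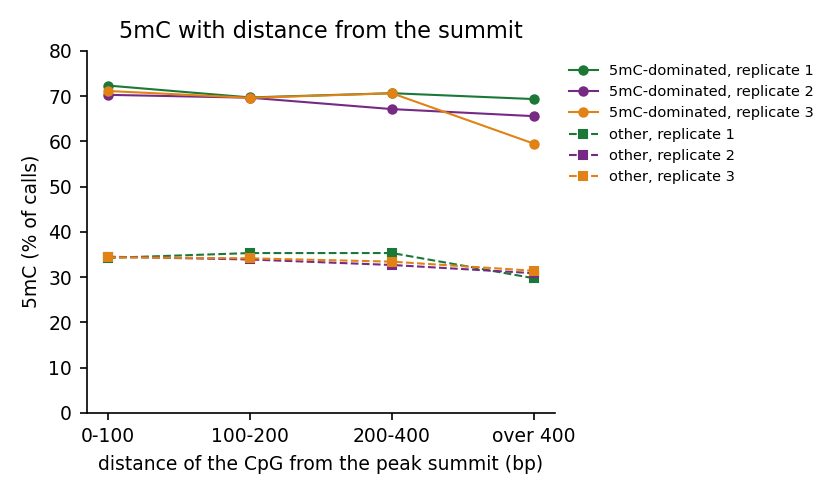
5mC as % of calls (y axis) by distance of the CpG from the summit in bp (x axis, 4 bins) in each replicate, for 5mC-dominated (solid) and other regions (dashed). The solid lines stay between 59.5% and 72.3% and the dashed lines between 29.7% and 35.3%.

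At single sites 9414 CpGs of the group had a call, and 33.4% of them had just 1. At 4879 sites (51.8%) every call was 5mC, against 16.2% of sites in the other regions. At least 1 5hmC call was found at 3339 sites (35.5%) and at least 1 unmodified call at 1585 (16.8%), against 52.0% and 51.3% in the other regions.

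Peaks of the group numbered 35, 410 and 287 in replicates 1 to 3, with a median fold enrichment over input of 4.72, 3.83 and 3.87, and other peaks in the same replicates had medians of 4.72, 3.83 and 3.87 (exact sign-flip permutation test, p = 1.0, n = 3). At this depth many peaks of a replicate have the same fold, so the medians could hardly differ. Equal enrichment is therefore not read from that test. The mean folds were 5.50 against 5.13, 3.93 against 4.04 and 3.86 against 4.07, where the 35 member peaks of replicate 1 include a single one of 17.8-fold near Gm9075 (exact sign-flip permutation test, p = 1.0, n = 3). With at least 30 calls per region the mean difference in medians was 0.315. Of the 677 regions, 626 (92.5%) had a peak in 1 replicate, 48 in 2 and 3 in all 3, against 82.2%, 16.5% and 1.32% of the others. A peak in 1 replicate was also the case for 87.5% of the 5hmC-dominated and 89.5% of the unmodified regions. Of the eligible peaks of replicates 1 to 3, the group took 12.6%, 15.4% and 17.1%, out of 277, 2660 and 1674 such peaks. Whole serum was lowest, but it is 1 library, and an exact permutation test of 1 against 2 cannot go below p = 0.3333, so no difference between antibodies is read from it.

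A replicate often gave calls in a region where it had no peak of its own. In replicate 1 there were 2928 such calls with 69.5% 5mC, and 889 calls under its own peaks with 75.3%. In replicate 2 the shares were 71.8% without a peak and 68.6% with one, and in replicate 3 they were 69.5% and 69.8%.

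The best covered region with peaks in all 3 replicates was in an exon of Celsr2, at chr3:108319679-108322309, which is also the longest and holds 130 CpGs. In replicates 1 to 3 it read 5mC in 60 of 78, 66 of 104 and 49 of 88 calls. Replicate 1 was the highest at 76.9%, and replicate 3 the lowest at 55.7%. Over all replicates 5mC was 64.8% (95% exact binomial interval 58.8 to 70.5%). Such intervals cover counting error only, and since 1 read gives several calls they are too narrow.

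Of the 10 best covered regions with peaks in 2 or more replicates, 8 lay over a gene and 7 of these in exons. Rhbdf2, an inactive rhomboid protein, had 5mC in 40 of 60, 13 of 20 and 26 of 36 calls, with all replicates between 65% and 72.2%. Ywhag had 19 of 35, 27 of 40 and 27 of 41, lowest in replicate 1 at 54.3%. Chrnb2, the beta 2 subunit of the nicotinic acetylcholine receptor, had 23 of 28, 25 of 45 and 24 of 39, highest in replicate 1 at 82.1%. Clcn4, a chloride and proton exchanger, had 5mC in 24 of 38 calls of replicate 1 and 79 of 108 calls of replicate 3, and replicate 2 gave no call. Summed over replicates, Clcn4 was the highest of these exonic regions at 70.5%.

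Among regions with 30 or more calls the highest 5mC was in an exon of Zap70, a kinase of T cell receptor signalling, at chr1:36818121-36818424. Replicate 1 read 5mC in 13 of 14 calls there and replicate 2 in all 18, 96.9% together (interval 83.8 to 99.9%), with no call in replicate 3. An exonic region of Foxn3, a forkhead repressor, had 13 of 14, 10 of 11 and 10 of 12, and so was high in all 3 replicates. Rela, a subunit of NF-kappa B, had 30 of 35 calls, all of them from replicate 2. Srrm2, a splicing factor, had 8 of 12, 13 of 15 and 13 of 13. Crygs, a lens crystallin, had 22 of 26 and 10 of 11 in replicates 1 and 2.

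Some regions were made of repeated sequence. In 29 of the 677 regions (4.28%) at least 50% of the 24-base words occur 10 or more times in GRCm39, against 1.76% of the others, 0.543% of the 5hmC-dominated regions and 5.11% of the unmodified ones. Their calls were 73.8% 5mC and those of the remaining 648 regions were 69.4%, both sets having been chosen for at least 60%. Mecom and Itpr1 introns hold members in which all the words are of this kind, with 27 of 30 calls and 25 of 30 calls as 5mC, each from 1 replicate.

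The strongest peak of the group, at 17.8-fold, lay near Gm9075 at chr12:3159735-3160218. 5mC was 34 of 39, 21 of 24 and 30 of 32 calls, between 87.2% and 93.8%, and 4 of 95 calls were 5hmC. A further 4 members share 24-base words with it, 3 near Gm63573 on chromosome 14 and 1 in an intron of Mdga2, while none of the 3247 other regions does. The likeness is uneven, with 84 to 89 shared words in the regions near Gm63573 and 4 in the Mdga2 region. The printed letters of the windows near Gm9075 and Gm63573 read like the major satellite repeat of mouse pericentromeric DNA, though no repeat annotation was used here. The 4 further members had 87.0% 5mC and 1.18% 5hmC in 169 calls. Of the 13 regions left out for a CpG of 20 or more calls, 8 share such words, and 12 of the 13 would pass 60% 5mC. Those 13 regions hold 56100 calls, of which 37742 are in 1 region.

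Of the 20 members with no 5hmC call, the best covered lay near Tmem125 at chr4:118404431-118405426, with 0 of 77 calls, which allows a share of up to 3.90% when the limit is set at 3 counts of the total (the exact 95% binomial interval reaches 4.68%). The regions near Gm63573 (0 of 62) and in Mdga2 (0 of 47) allow up to 4.84% and 6.38% by the same limit (5.78% and 7.55% by the exact interval). The rest that are named by the same rule had 18 to 23 calls, among them Csnk1e, a clock kinase, Tyro3, a receptor kinase, and Fyn, a Src family kinase. At such depth a low 5hmC share could not be seen.

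Differences in 5mC between replicate 1 and replicates 2 and 3 together were tested region by region with Fisher's exact test where both sides had 10 or more calls. Of 776 regions tested, 33 (4.25%) passed a Benjamini-Hochberg adjusted p of 0.05. Of the 677 members 110 could be tested and 4 passed (3.64%). The same calls chose the members, which limits how far the replicates of a member can differ, so nothing is read from that share. The whole serum side is 1 library, and several calls come from 1 read, so the test compares these libraries with p-values that are too small. Near Tmem125 5mC was 36 of 39 calls in replicate 1 and 18 of 38 in the purified replicates. In Plcd1, a phospholipase C, it was 11 of 11 and 4 of 13. Hivep3, a zinc finger gene, had 3 of 11 and 17 of 19, and Zfand3 had 3 of 13 and 24 of 31. The regions near Tmem125 and in Hivep3 count as repeated sequence by the rule given above. With replicate 2 alone as the purified side, 33 of 580 regions passed, 1 of them a member. With replicate 3 alone, 18 of 405 passed, 3 of them members. With at least 5 calls a side 28 of 1948 passed, 6 of them members, and with at least 15 it was 23 of 370 and 1 member.

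Gene lists give the place of the group among known genes. A gene counts where a region lies over it or in the 1000 bp before its start. Of 2042 protein-coding genes with an eligible region, 526 (25.8%) had a 5mC-dominated one. Imprinted genes had 3 of 7 (H13, Igf2r and Ppp1r9a). Cerebellar granule and Purkinje cell genes had 3 of 6. They were Cacna1a, a calcium channel, Itpr1, the inositol trisphosphate receptor of Purkinje cells, and Rora, a nuclear receptor that Purkinje cells need. The Itpr1 member is the region of repeated sequence described above, with 30 calls from replicate 3 alone. The Cacna1a members had 17 and 24 calls and the Rora member 15. Grin2c, of the same list, had eligible regions and no member. Germline genes had 1 of 3 (Dazl), oligodendrocyte and astroglia genes 1 of 2 (Mbp, myelin basic protein), and genes of the DNA methylation machinery 0 of 4. Zfp genes, which encode zinc finger proteins, had 13 of 32. Olfactory receptor genes had 0 of 1, and no vomeronasal receptor gene had an eligible region. The protocadherin genes had 15 of 15, all from a single region of 15 calls in the alpha cluster, whose genes overlap. Without replicate 2 the counts were 1 imprinted, 1 cerebellar and 6 Zfp genes, and without replicate 3 they were 1, 2 and 6. With so few genes these counts are a description.

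The germline gene Dazl, which is known to be silenced by promoter methylation in somatic cells, had its member at the promoter, at chr17:50600548-50601771 with 64 CpGs. Replicate 1 gave 44 5mC calls of 62 and replicate 3 gave 20 of 26, 72.7% in all (interval 62.2 to 81.7%), and replicate 2 had no call there. Igf2r, the imprinted receptor that clears IGF2, had 4 of 7 and 10 of 11 calls in replicates 1 and 2. That region lies outside the imprinting control region of the gene. Of 15 imprinting control regions with coordinates from the study, 1 held an eligible region and 0 held a member. Mbp had 13 of 13 and 12 of 16 calls, Zfp358 had 56 of 69, all in replicate 2, and Zfp747 had 4 of 4, 27 of 31 and 14 of 21.

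Most genes had a single member: 486 had 1, 42 had 2 and 10 had 3 or more. Hivep3, Prkce, a protein kinase C, and Tiam1, a Rac activator, had 5 each, of 8, 24 and 21 eligible regions. Across all eligible regions, 677 of 3924 were members. Over all eligible regions of the gene 5mC was 52.9% in Hivep3, 40.1% in Prkce and 38.5% in Tiam1. All 3 eligible regions of Atxn1 and of Mdga1 were members. By chromosome the group made up 11.6% (chromosome 6) to 23.0% (chromosome 17) of eligible regions.

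Reads with no usable call, meaning those that failed the confidence filter, showed another base or gave no call, were 7.78% in the group against 6.86% in the other regions in replicate 1. In replicates 2 and 3 they were lower in the group, at 8.07% against 10.7% and 5.76% against 7.64%. The mean difference was -1.20 percentage points ± 1.87 (SD, n = 3), within the spread between replicates (exact sign-flip permutation test, p = 0.5).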

How the data were processed

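The authors base-called the nanopore reads with Dorado, aligned them to mm39 (GRCm39) with minimap2 and wrote per-CpG calls with modkit. They called peaks with MACS2 on each replicate alone with an untreated aliquot as input. The deposited pileups hold whole counts of 5hmC, 5mC and unmodified calls and of failed, different and missing calls, and a percent of 5hmC, which was not used. The deposited peak lists hold a fold enrichment as a ratio, p- and q-values as −log10, summit offsets and a score for display, which was not used.

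Peaks were merged and calls summed per region as given in the report. In every pileup line the 3 states summed to the valid count. Places come from GENCODE vM39 and sequence from GRCm39. The depth per region is small, with a median of 22 calls. Tests were exact permutation tests over 3 replicates and Fisher's exact test per region, run in Python 3.11.15 with scipy 1.17.1, and were tested on simulated data.

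The members, gene lists and tests were chosen with earlier results of these data known. Named regions were the 10 best covered with peaks in 2 or more replicates, the 10 highest in 5mC with 30 or more calls, the 5 highest folds, up to 10 with no 5hmC call, those of the fixed gene lists, those at the threshold, the 3 longest and those that passed the per-region test, of which the text gives a part. Alternatives changed the call minimum, the 5mC threshold, the merging, the deep-CpG filter, the peak filter and the replicates used.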

Additional observations from a re-analysis of the deposited data

Results flagged for a closer look

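The share of reads with no usable call was 0.921 percentage points higher in the 5mC-dominated regions than in the others in replicate 1, and differed by -2.63 and -1.89 points in replicates 2 and 3. It drew attention because the whole serum replicate and both purified replicates went opposite ways; the difference between antibodies was not tested and rests on 1 whole serum reaction.

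Chromosome X, which the choice of regions left out, had 46 merged regions, of which 15 had enough calls and 3 met the same rule. Those 3 hold 497 calls with 86.5% 5mC. They drew attention only as data that the comparisons did not use, and nothing is read from so small a count.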

How the results depend on the processing

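The number of 5mC-dominated regions, 677, moved with the thresholds. It was 1137 and 186 with at least 10 or 30 calls, 1243 and 278 with 5mC of at least 50% or 70%, and 191 with peaks of at least 4-fold. It ranged from 278 to 557 when each replicate was left out (278 without replicate 2 and 372 without replicate 3). The regions changed too: 168, 435 and 350 of the 677 were lost without replicates 1, 2 and 3. In each case some of the regions counted were not among the 677. Held-out 5mC kept its direction under every alternative (16.7 to 35.0 percentage points, the highest without replicate 2). Held-out 5hmC, a result added after seeing the data, ranged from -9.00 to 2.36 on leaving out replicates, the last without replicate 3, and the cause was not tested. The per-region test called 33 of 776 regions, 4 of them members. It called 18 of 405 (3 members) without replicate 2, 33 of 580 (1 member) without replicate 3 and 23 of 370 (1 member) with at least 15 calls a side.

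With at least 10 or 30 calls the members' median CpG density was 2.57 and 3.56 per 100 bp, GC 51.4% and 55.9%, length 345 and 611.5 bp, intron share 59.8% and 44.1% and coding-sequence share 29.9% and 48.9%. At 5mC of 50% or more, CpG density was 2.65, GC 51.9% and the intron share 57.3%. At 70% or more, density was 3.19, length 354.5 bp and the intron share 51.8%. Also tried after seeing the data, thresholds of 50% and 70% gave 42.5% and 64.3% of sites with 5mC in every call. At 70% the lists had 1 cerebellar and 5 Zfp genes. On leaving out replicates, also added after seeing the data, density was 2.90 to 3.11, GC 52.5 to 53.2%, length 399 to 511 bp, intron share 48.8 to 54.5%, coding-sequence share 36.6 to 39.9%, and fully 5mC sites 53.3 to 55.4%. The lists then had 1 to 2 imprinted, 1 to 2 cerebellar and 6 to 10 Zfp genes. Depth limits every single region: at 15 calls, each call is a large part of the share.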
